A study of Mus musculus with 283 samples.

Results

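p53-2336R is a transplanted mouse mammary tumour that the labels class as resistant to checkpoint therapy, and this is an account of its gene expression at the end of therapy. The 13 tumours described were all samples of the series labelled with the model p53-2336R and the time "end", out of 283 samples in the series. Of these, 5 came from mice given antibodies against PD-1 (10 mg/kg) and CTLA-4 (125 ug), and 8 came from mice given no therapy. The label of an exome sample of this tumour gives it as p53-null and of the BALB/c strain, so both groups are labelled as lacking p53 in their tumour cells. Tumours were placed in the mammary site of hosts of the same strain, mice were allotted to their arm at a tumour diameter of 5 mm, and antibody went into the abdominal cavity in volumes of 100 ul. The labels give neither the day that "end" stands for, nor the age of the mice, nor whether each library came from a separate mouse. The p-values below therefore measure a spread between libraries, which may in part be technical. For therapy at end stage this spread was pooled over 21 p53-2336R libraries, of which 8 were from 3 days.

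PD-1 and CTLA-4 are inhibitory receptors of T cells. CTLA-4 competes with CD28 for the ligands CD80 and CD86 during T cell priming, and PD-1 damps T cells that meet its ligand PD-L1 (the gene Cd274) on tumour or myeloid cells. Antibodies that block both are given to release T cells against a tumour. T cells that act secrete interferon gamma, which raises class I antigen presentation and chemokines such as Cxcl9 and Cxcl10 in the cells around them. Tumours can escape by lowering class I presentation, by drawing in suppressive macrophages that express Arg1, or by changing their differentiation state.

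Messenger RNA was sequenced as pairs of 50 bases, and the deposited values are gene signals scaled by the authors to a common upper quartile. All levels below are log2(signal + 1), and all differences are therapy minus untreated on that scale, where 1 is a 2-fold difference. The signal is not divided by gene length, so levels are compared between libraries and not between genes. The end-stage libraries held an estimated 29.4 to 95.3 M reads (M, mega) and 21316 to 24544 genes above 0. Each of the 13 libraries was most like other p53-2336R libraries among the 13 tumour models compared with it. Epithelial markers were high in every library: Krt5, a basal keratin, lay between 15.80 and 16.47 in therapy tumours and between 15.15 and 16.50 in untreated tumours. Epcam, an epithelial surface protein, lay between 13.78 and 14.20 in therapy tumours and between 13 and 14.01 in untreated tumours. Trp53 itself averaged 12.90 ± 0.56 in therapy tumours and 12.63 ± 0.20 in untreated tumours (SD, n = 5 and 8), with 11.97 to 12.99 in 5 normal BALB/c mammary glands. A gene sum does not show whether a transcript makes protein, so this level does not check the p53-null label.

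Libraries stood apart before any comparison of arms. The flow cell named in the label, a sequencing run, differed between libraries: therapy replicates 1 to 4 and untreated replicates 2 to 5 shared flow cell BCAVF1ANXX, therapy replicate 5 and untreated replicate 8 shared C9T7VANXX, and untreated replicates 1, 6 and 7 came from a flow cell each that held no therapy library at end stage. That of untreated replicate 6, ACBBR1ANXX, also held all 8 libraries from 3 days, and that of untreated replicate 7 did not. The first principal component of the 21 p53-2336R libraries, which include 8 libraries from the 3-day time point, held 35.3% of the variance. Untreated replicates 6 and 7 scored -48.7 and -58.7 on it and lay among the 3-day libraries, while the other 11 end-stage libraries scored 10.4 to 85.5. The second component held 13.7% of the variance, and therapy replicate 2 lay alone at its low end at -105.1.

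**Figure D1:**
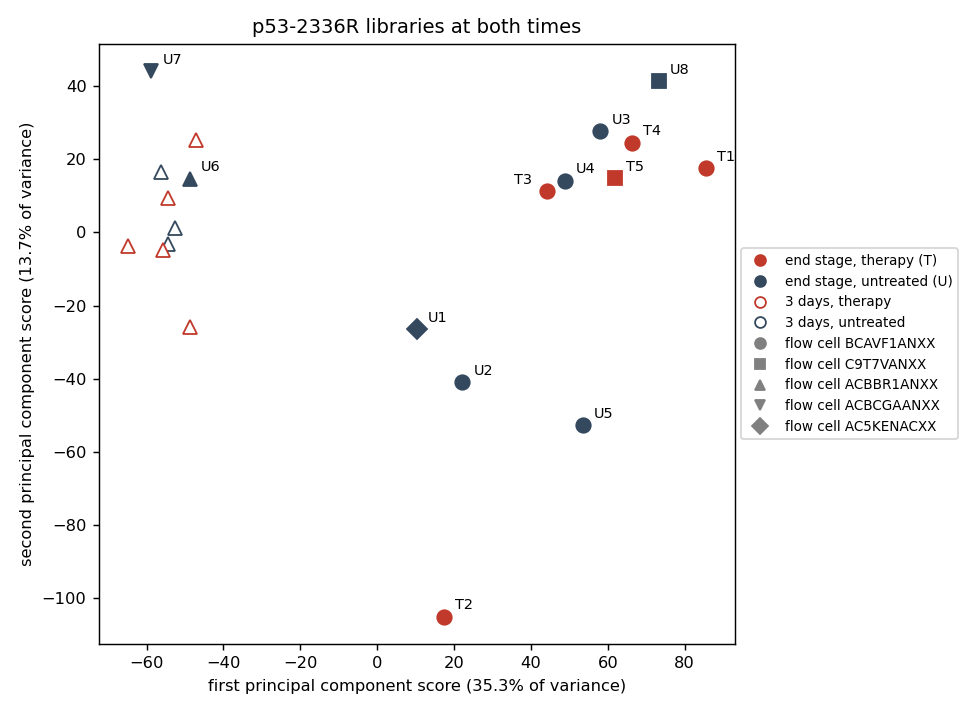
Scores of the 21 p53-2336R libraries on the first and second principal components of log2(signal + 1). Each point is a library, its colour the arm, its fill the time and its shape the flow cell. Untreated replicates 6 and 7 (U6 and U7) lie with the 3-day libraries at the left, and therapy replicate 2 (T2) lies at the bottom.

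Some of the genes that set these libraries apart were listed at or near 0 on one side. Of 16417 genes tested, 510 (3.11%) were higher and 607 (3.7%) were lower in untreated replicates 6 and 7 and all 8 libraries from 3 days than in each of the other 11 end-stage libraries. The genes named here were chosen after their values were seen. Hoxd13, a homeobox gene of limb and genital development, had levels of 8.69 to 9.74 in those 10 libraries and was listed at 0 in the other 11. Aqp6, a water channel, had levels of 10.67 to 11.42 in the 10 and 0 to 5.03 in the 11. Setdb1, a histone methyltransferase that silences retroelements, had levels of 15.66 to 16.41 in the 10 and 12.12 to 12.95 in the 11. In the other direction, Rhox2f, a homeobox gene of the reproductive tract, had levels of 0 to 1.18 in the 10 and 7.86 to 9.93 in the 11. Col2a1, a cartilage collagen, had levels of 9.28 to 10.23 in the 10 and 12.76 to 15.28 in the 11. Because no end-stage therapy tumour resembled untreated replicates 6 and 7, the called genes and the lists with the larger medians are also given without them. The comparisons with 3 days and with other models were not refitted without them.

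Therapy at end stage was set against no therapy at end stage to ask how tumours that grew out under the antibodies differed from tumours that grew out without them. Only 2 genes passed an adjusted p of 0.05 by limma with Benjamini-Hochberg adjustment over all 16417 genes. Both were lower under therapy (0.0122% of the genes tested), and 0 were higher (0%). At an unadjusted p under 0.05, 1562 genes were higher (9.51%) and 1912 lower (11.6%), 50% of genes had a difference above 0, and the median difference over all genes was 0.

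Pcdh7, a protocadherin of the cell surface, fell under therapy. It lies on chromosome 5 at 57717967 to 58133230 of GRCm38, on the plus strand. Its levels were 7.44, 7.67, 8.01, 7.76 and 7.91 in the 5 therapy tumours, against 9.35, 8.83, 8.72, 8.48, 8.62, 8.72, 8.81 and 9.12 in the 8 untreated tumours. All therapy values lay below all untreated values. The difference was -1.08 ± 0.17 (SE, adjusted p = 0.0206 by limma). Pcdh7 falls outside the rule for named genes because its mean level is below the median, and it is named because few genes passed. Without untreated replicates 6 and 7 its adjusted p was 0.0656.

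Olfml2a, a secreted olfactomedin-like protein of the extracellular matrix, fell as well. It lies on chromosome 2 at 38931978 to 38963753 of GRCm38, on the plus strand. Its levels were 12.76, 12.22, 12.45, 12.29 and 12.76 in therapy tumours, against 13.87, 13.40, 13.40, 12.89, 13.83, 13.41, 13.74 and 13.52 in untreated tumours. The groups did not overlap here either, with untreated replicate 4 closest to the therapy tumours. The difference was -1.01 ± 0.16 (SE, adjusted p = 0.0206 by limma), and the adjusted p was 0.0656 without untreated replicates 6 and 7. Genes whose groups did not overlap made up 0.286% of all genes tested in the higher direction and 0.841% in the lower.

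The differences of both genes kept their sign and size across settings, while the calls did not. Over 30 settings the difference of Pcdh7 lay between -1.15 and -0.95 and that of Olfml2a between -1.10 and -0.91. On flow cell BCAVF1ANXX alone, with 4 libraries in each arm, the differences were -0.95 for Pcdh7 and -0.95 for Olfml2a, with an adjusted p of 0.546 for each, where 1 of 14090 genes passed (0.0071%; 8.94% had an unadjusted p under 0.05). With the flow cell as a term, adjusted p was 0.145 for Pcdh7 and 0.150 for Olfml2a, and 0 genes passed (0%; 2594, or 15.8%, at an unadjusted p under 0.05 by limma). With the spread taken from the 13 end-stage libraries alone, adjusted p by limma was 0.143 for each of the 2 genes. The number of genes called lay between 0 and 693 across settings. It was 0 by limma when untreated replicate 1 or 5 or therapy replicate 1, 2 or 3 was left out (2952 to 3284 at an unadjusted p under 0.05). It was 393 without untreated replicate 8 (205 higher and 188 lower), 108 without untreated replicate 4 (32 higher and 76 lower), 15 without untreated replicate 3, 12 without therapy replicate 5 and 4 without therapy replicate 4. Scaling by the median ratio gave 250 calls (89 higher and 161 lower), so the share of calls that were higher was 35.6% against 0% with the deposited scaling.

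**Figure D2:**
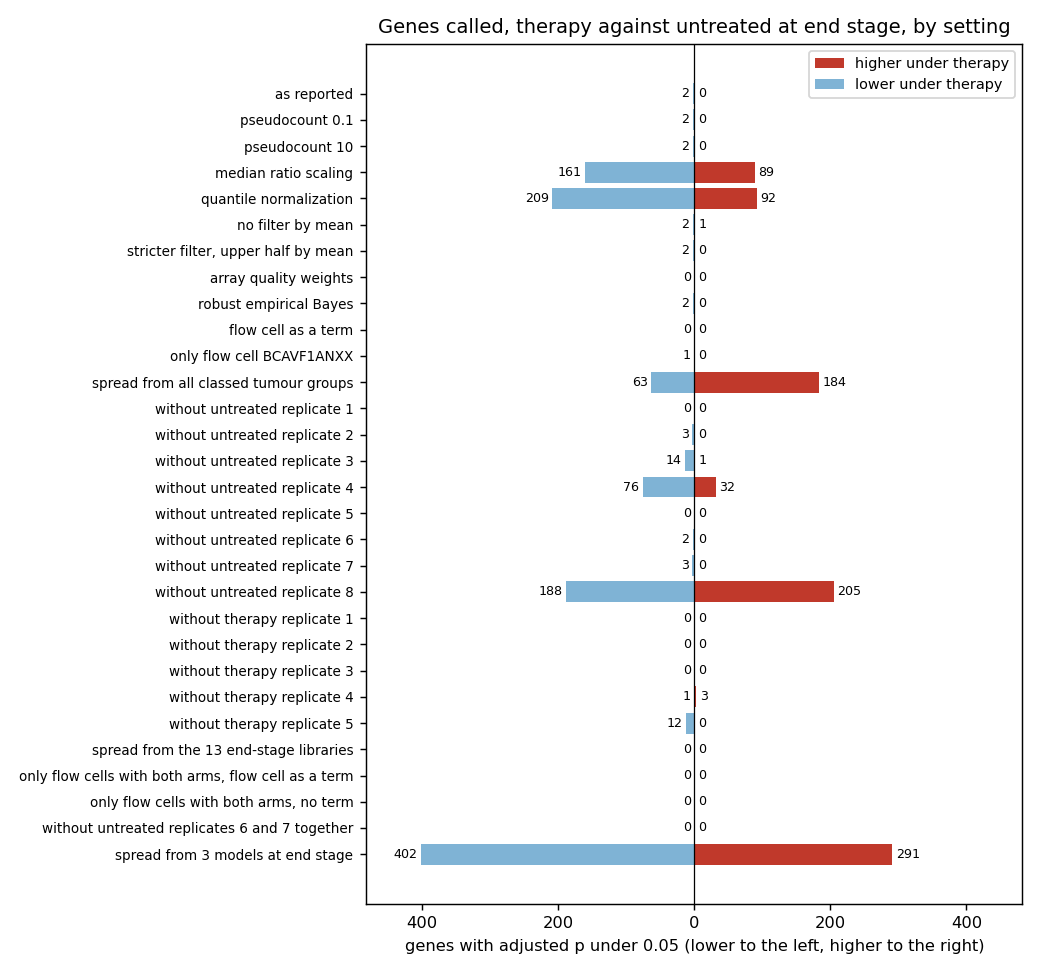
Genes with an adjusted p under 0.05 by limma for therapy against untreated at end stage, under each setting. Bars to the right count genes higher under therapy and bars to the left genes lower under therapy. The reported fit calls 0 higher and 2 lower, and leaving out untreated replicate 8 gives 205 higher and 188 lower.

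In the 6 settings with over 100 calls, 964 genes passed at least once and 13 passed in all 6. The settings reused the same end-stage tumours, some with a tumour left out, and are not independent of each other. With the spread from all classed tumour groups, for one, 0.897% of genes passed as higher and 0.307% as lower, with median ratio scaling 0.542% and 0.981%, with quantile normalization 0.56% and 1.27%, and without untreated replicate 4 0.196% and 0.466%. These 13, chosen after their values were seen, were Pcdh7, Adam17, Fhl5, Prepl, Ptprg and Soga1 with lower levels under therapy, and Bcl3, Fbxo6, Fxyd2, Gadd45g, Gm44170, Jund and Tnfrsf12a with higher levels. Tnfrsf12a, the receptor of the cytokine TWEAK, had levels of 11.15, 10.67, 10.27, 10.41 and 11.24 in therapy tumours, against 8.56 to 10.20 with a median of 9.71 in untreated tumours. Gadd45g, a stress-induced growth arrest gene, had levels of 10.18, 9.99, 9.88, 9.75 and 10.57 in therapy tumours, against 8.19 to 9.45 with a median of 8.95 in untreated tumours. Neither gene overlapped between arms, and their differences were 1.26 ± 0.28 and 1.19 ± 0.27 (SE, adjusted p = 0.075 and 0.0777 by limma with all libraries).

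Among genes with a mean level above the median and a difference of at least 1, no other gene passed, and those with the smallest unadjusted p are given as values. On the lower side they were Pcdhgc3, Akap12, Sfrp1, Heca and Dlc1, with differences between -1.34 and -1.01 and adjusted p between 0.075 and 0.0802. Pcdhgc3, a clustered protocadherin, had levels of 12.62, 11.21, 12.34, 12.56 and 12.51 in therapy tumours, against a lowest, median and highest of 13.14, 13.49 and 14.75 in untreated tumours. These groups did not overlap. Its first exon is spliced to exons shared with other genes of its cluster, so its reads cannot be assigned to it with certainty. Sfrp1, a secreted inhibitor of Wnt ligands, had levels of 13.97, 13.69, 14.48, 14.23 and 14.23 in therapy tumours, against 14.33 to 16.48 with a median of 15.33 in untreated tumours, and the groups overlapped at untreated replicates 2 and 4. Without untreated replicates 6 and 7 the difference of Sfrp1 was -0.87 and not -1.15. Dlc1 and Akap12, a scaffold of protein kinase A, averaged 9.79 ± 0.51 and 10.09 ± 0.55 in therapy tumours and 10.80 ± 0.60 and 11.30 ± 0.64 in untreated tumours (SD, n = 5 and 8).

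On the higher side the genes with the smallest unadjusted p were Jund, Lgals3, Arg1, Tspan13, Krt18 and Mfsd2a, with differences between 1.14 and 2.28 and adjusted p between 0.075 and 0.0969. Jund, a subunit of the AP-1 transcription factor, had levels of 12.80, 13.23, 12.19, 11.79 and 12.53 in therapy tumours, against 11.01 to 11.80 with a median of 11.33 in untreated tumours. Only therapy replicate 4 lay within the untreated range. The difference of Jund was 1.14 ± 0.22 (SE), and Jund passed under 6 settings that each gave over 100 calls. Its adjusted p by limma was 0.546 on flow cell BCAVF1ANXX alone and 0.166 with the flow cell as a term. Lgals3, galectin-3, a lectin made by macrophages and epithelium, had levels of 12.52, 11.82, 11.69, 9.87 and 12.04 in therapy tumours, against 9.30 to 11.13 with a median of 10.05 in untreated tumours. Therapy replicate 4 was again inside the untreated range and the other 4 were above it. Arg1, the arginine-degrading enzyme of suppressive macrophages, had levels of 13.20, 11.84, 12.26, 11.89 and 12.60 in therapy tumours, against 7.40, 9.71, 12.21, 11.56, 8.86, 9.07, 9.70 and 12.08 in untreated tumours. Untreated replicates 3 and 8 lay in the therapy range of Arg1, replicate 4 lay just under it and the other 5 lay further below.

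**Figure D3:**
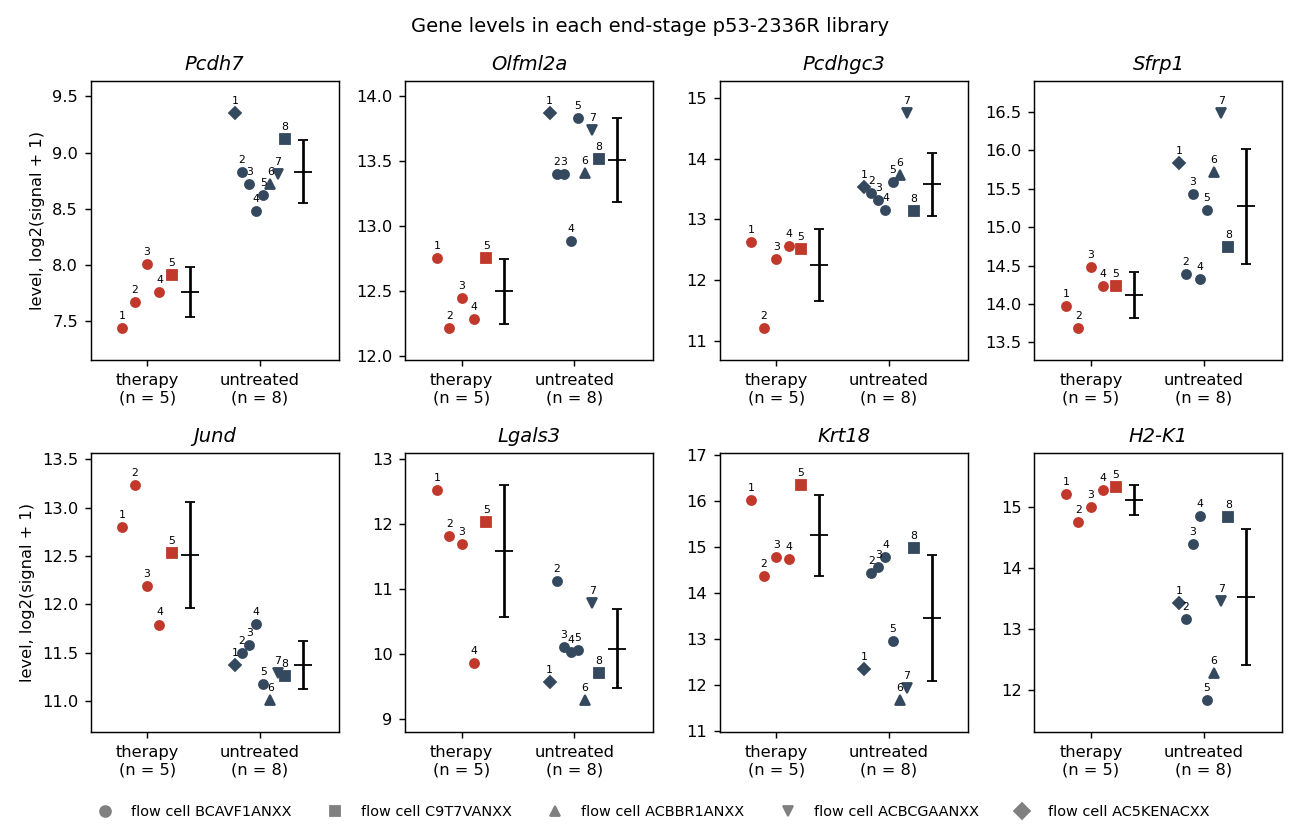
Levels, log2(signal + 1), of 8 genes in each end-stage p53-2336R library, with therapy tumours at the left and untreated tumours at the right of each panel. Numbers are replicates, shapes are flow cells, and the bar beside each group is the mean with its SD (n = 5 and 8). Pcdh7 and Olfml2a separate the arms without overlap, while untreated replicates 4 and 8 lie within the therapy range of both Krt18 and H2-K1.

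The 43 gene lists hold 587 members, and 0 members of any list passed the adjusted threshold (background 0% higher and 0.0122% lower). Those described next are given by the sign and size of their members' differences. Over all genes the median was 0 and the quartiles were -0.25 and 0.25. Not every list is described, and lists left out also held sizeable differences in both directions. Siglech and Batf3, of dendritic cells, differed by -2.06 ± 0.73 and 1.22 ± 0.48 (SE). Bank1, of B cells, differed by -1.27 ± 0.45 and Tgm1, of squamous differentiation, by 1.53 ± 0.48. Of 10 smooth muscle and pericyte genes 9 were below 0, with a median of -0.44. Their median was -0.20 on flow cell BCAVF1ANXX alone and -0.05 with the flow cell as a term.

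Antigen presentation by class I was the list with the highest median difference, 1.13 over 14 tested members, with 12 above 0. At an unadjusted p under 0.05, 9 members were higher and 1 was lower, against 9.51% and 11.6% of all genes. H2-K1, a classical class I heavy chain, had levels of 15.21, 14.75, 14.99, 15.28 and 15.32 in therapy tumours, against 13.42, 13.16, 14.39, 14.84, 11.83, 12.27, 13.46 and 14.83 in untreated tumours. The therapy tumours were alike and high, while the untreated tumours spread widely, with replicates 4 and 8 inside the therapy range. Its difference was 1.58 ± 0.47 (SE, adjusted p = 0.099 by limma). H2-D1, another classical heavy chain, differed by 1.63 ± 0.50. The class I genes are near-identical in sequence, so reads of H2-K1, H2-D1 and H2-Q7 may have been shared among them. Such sharing was not tested. Psmb9, a subunit of the immunoproteasome, differed by 1.60 ± 0.55, and B2m, the light chain, by 1.13 ± 0.44. Tap1, a subunit of the peptide transporter, averaged 12.62 ± 0.78 in therapy tumours and 11.48 ± 0.98 in untreated tumours. The 2 members below 0 were Pdia3 and Erap1, an oxidoreductase and a peptide-trimming enzyme of the endoplasmic reticulum.

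The class I list kept its sign without the libraries that stood apart. Its median difference was 0.87 without untreated replicates 6 and 7, 1.02 on flow cell BCAVF1ANXX alone and 0.90 with the flow cell as a term. Its level, the mean over tested members, was highest in therapy replicate 5 at 13.58 and lowest in untreated replicate 5 at 11.19. With the spread taken from the end-stage groups of 3 models, 6 members passed: H2-K1, H2-Q7, H2-D1, Psmb9, Tap2 and Psmb8 (1.67% of all genes passed in this direction in that fit).

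Most interferon-responsive genes had differences above 0. In the type I interferon list, 19 of 20 members had differences above 0 with a median of 0.82 (1.12 without untreated replicates 6 and 7), and 4 were higher and 1 lower at an unadjusted p under 0.05, against 9.51% and 11.6% of all genes. Isg15, a ubiquitin-like antiviral protein, averaged 10.57 ± 1.49 in therapy tumours and 9.13 ± 1.01 in untreated tumours (SD, n = 5 and 8). Ifit2, an antiviral protein induced by interferon, was the member below 0, at 8.47 ± 0.28 in therapy tumours and 9.39 ± 0.83 in untreated tumours. In the interferon gamma list, 18 of 22 members were above 0 with a median of 0.37 (0.60 without untreated replicates 6 and 7), and 2 were higher at an unadjusted p under 0.05, a share near the 9.51% of all genes. Nlrc5, the transactivator of class I genes, averaged 10.28 ± 0.70 in therapy tumours and 8.74 ± 1.46 in untreated tumours, a difference of 1.54 ± 0.71 (SE, adjusted p = 0.221 by limma). Ubd, a ubiquitin-like protein, had levels of 4.32, 5.40, 4.49, 4.49 and 4.27 in therapy tumours and 0 to 4.18 in untreated tumours, with no overlap. The chemokines gave small differences: Cxcl9 differed by -0.17 ± 1.12 and Cxcl10 by 0.35 ± 0.82. Class II presentation had a median difference of 0.09 over 10 members.

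**Figure D4:**
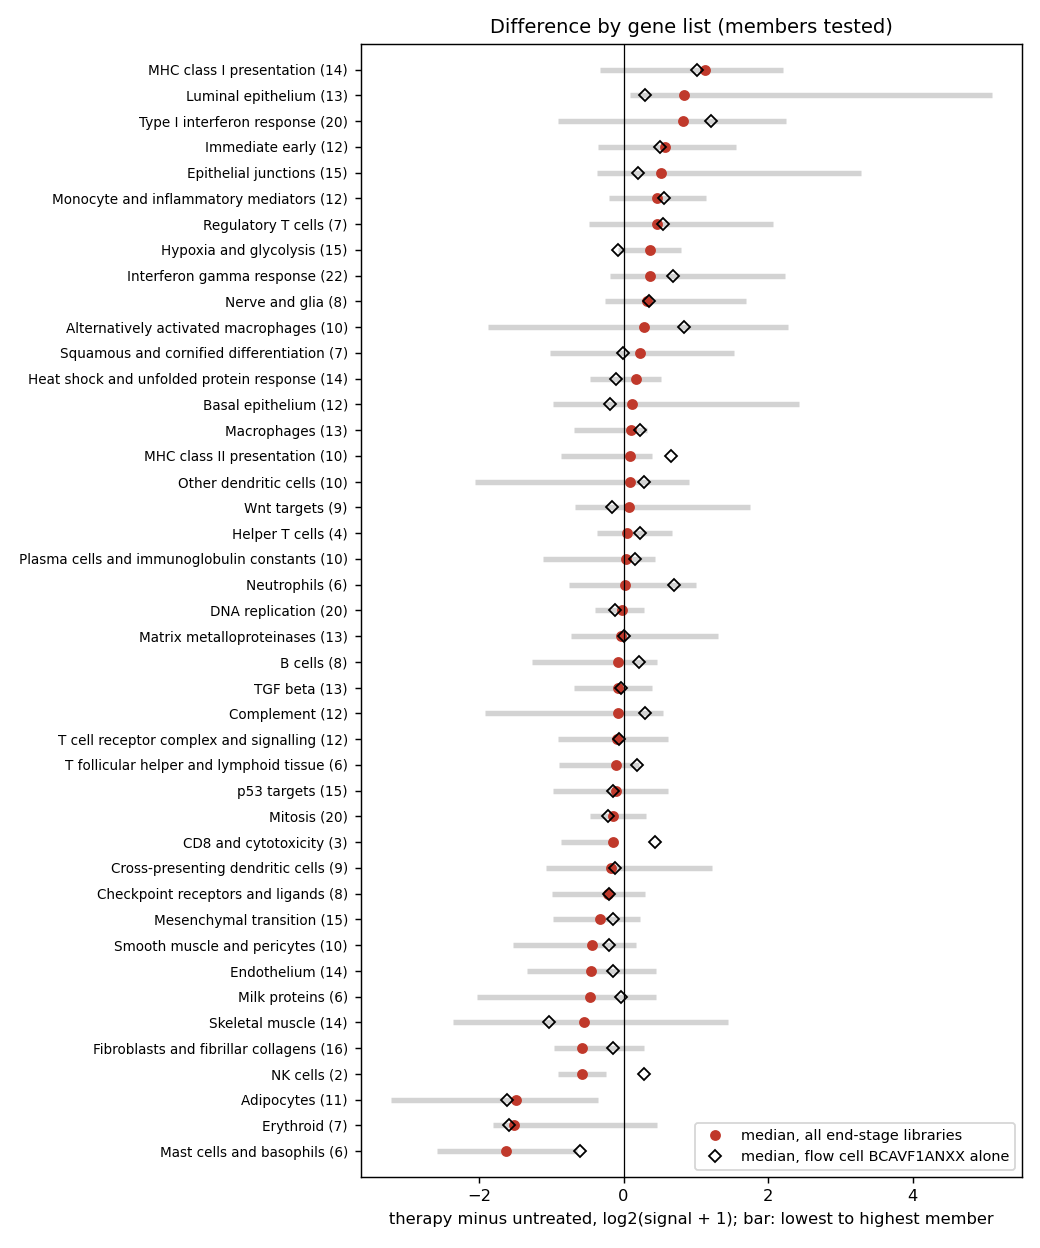
Differences between therapy and untreated tumours for the tested members of each gene list, log2(signal + 1). Grey bars run from the lowest to the highest member, red points are medians over all end-stage libraries and open diamonds are medians on flow cell BCAVF1ANXX alone. Class I presentation has the highest median, 1.13, and mast cells and basophils the lowest, -1.63.

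T cell genes were low in both arms. In bulk tumours fewer cells of a type and less RNA per cell cannot be told apart. Of the 16 members of the CD8 and cytotoxicity list only 3 were high enough to be tested, all with differences below 0 and a median of -0.15. Of the 16 members of the T cell receptor list 12 were tested, with 6 above 0 and 6 below and a median of -0.09. Without untreated replicates 6 and 7 both medians changed sign, to 0.15 for the first list and 0.11 for the other. Cd3e, a chain of the T cell receptor complex, had levels of 0, 5.83, 3.93, 2.84 and 2.79 in therapy tumours, against 2.39 to 5.25 with a median of 3.84 in untreated tumours. Cd8a, the marker of cytotoxic T cells, had levels of 1.04, 5.12, 3.03, 0 and 1.47 in therapy tumours and 0 to 5.18 in untreated tumours. Therapy replicate 2 and untreated replicate 7 were the highest of their arms in both genes, and therapy replicate 1 was listed at 0 for Cd3e. Gzmb, the killing protease granzyme B, had levels of 0, 5.58, 4.83, 2.49 and 2.18 in therapy tumours and 1.64 to 6.90 in untreated tumours. Ifng, interferon gamma, lay at or below 2.21 in every library and was listed at 0 in therapy replicates 1 and 4 and in untreated replicates 2 to 5.

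The regulatory T cell list had a median of 0.46 over 7 members, with 4 above 0 and 3 below, the lowest at -0.48. At an unadjusted p under 0.05, 2 were higher, Gpr83 and Tnfrsf4, and 0 were lower, against 9.51% and 11.6% of all genes. Tnfrsf4, the costimulatory receptor OX40, differed by 0.81 ± 0.34. Foxp3, the transcription factor that defines these cells, had levels of 5.01, 6.45, 5.30, 4.97 and 5.52 in therapy tumours and 4.24 to 5.28 in untreated tumours, a difference of 0.46 ± 0.42 (SE, adjusted p = 0.54 by limma). Gpr83, an orphan receptor found on these cells and in other tissues, had levels of 9.02, 7.83, 7.84, 6.57 and 8.36 in therapy tumours, against 4.19 to 7.07 with a median of 5.96 in untreated tumours. It differed by 2.07 ± 0.43 (SE, adjusted p = 0.075 by limma), with therapy replicate 4 the only therapy tumour in the untreated range. In p53-2225L tumours, another model of the series, Gpr83 averaged 8.92 ± 0.29 under therapy and 9.54 ± 0.64 without it (SD, n = 3 and 5). Ctla4, a target of the therapy, had levels of 3.24, 3.29, 3.40, 3.12 and 3.92 in therapy tumours and 1.62 to 3.68 in untreated tumours, and was too low to be tested. Pdcd1, which encodes PD-1, had levels of 1.04 to 3.83 in therapy tumours and 0.80 to 4.51 in untreated tumours. Cd274, which encodes PD-L1, differed by 0.11 ± 0.57.

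Myeloid genes were mixed. Of 13 macrophage genes 9 were above 0, with a median of 0.10, and Adgre1, the F4/80 antigen, differed by -0.29 ± 0.48. In the alternatively activated macrophage list 6 of 10 were above 0, and Arg1 and Folr2, a folate receptor of resident macrophages, were higher at an unadjusted p under 0.05, with differences of 2.28 ± 0.61 and 1.07 ± 0.38. Cd209f, a C-type lectin, was lower at that threshold, with a difference of -1.87 ± 0.85, and these 2 higher and 1 lower of 10 stand beside 9.51% and 11.6% of all genes. Of 12 inflammatory mediators 9 were above 0, and those of lowest p were Tnf at 0.88 ± 0.30 and Cxcl1 at 0.79 ± 0.34. Ly6g, a neutrophil marker, was listed at 0 in 4 of 5 therapy tumours and 7 of 8 untreated tumours. The markers Csf3r and S100a8 were not at this floor. Csf3r lay between 5.56 and 7.86 in therapy tumours and between 5.33 and 9.09 in untreated tumours. S100a8 had medians of 3.98 in therapy tumours and 3.60 in untreated tumours, with 1 untreated library at 0. All 6 tested mast cell and basophil genes were below 0, with a median of -1.63. Cpa3, a mast cell protease, had a lowest, median and highest level of 0.67, 2.03 and 5.42 in therapy tumours and 0, 5.24 and 10.33 in untreated tumours. The mast cell median was -0.60 on flow cell BCAVF1ANXX alone, -0.29 with the flow cell as a term and -0.55 without untreated replicates 6 and 7.

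Luminal keratins and junction genes had differences above 0 that rested on part of the therapy tumours. Mammary epithelium has an inner luminal layer marked by Krt8, Krt18 and Krt19 and an outer basal layer marked by Krt5 and Krt14. All 13 tested luminal genes had differences above 0, with a median of 0.83, and 6 were higher at an unadjusted p under 0.05, where 50% of all genes were above 0 and 9.51% were higher. Krt19 had levels of 16.48, 5.34, 9.0, 9.81 and 16.70 in therapy tumours, against 6.24, 5.80, 9.47, 7.65, 5.17, 3.73, 3.19 and 9.66 in untreated tumours. Therapy replicates 1 and 5 stood far above every other library and therapy replicate 2 was below the untreated median. Krt8 had levels of 16.53, 10.42, 14.06, 14.27 and 17.02 in therapy tumours, against 10.48, 10.46, 13.85, 13.41, 10.08, 11.63, 11.72 and 14.78 in untreated tumours. Therapy replicates 1 and 5 were again highest, and untreated replicates 3, 4 and 8 were close to therapy replicates 3 and 4. The differences were 5.10 ± 1.68 for Krt19, 2.41 ± 0.89 for Krt8 and 1.79 ± 0.51 for Krt18 (SE, adjusted p = 0.117, 0.144 and 0.0967 by limma).

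Foxa1, a pioneer factor of luminal cells, had levels of 11.06 in therapy replicate 1 and 11.46 in therapy replicate 5 and lay at or below 8.39 in the other 11 tumours. These 2 libraries came from different flow cells. The luminal median was 0.48 without therapy replicate 1, 0.60 without therapy replicate 5 and 0.30 on flow cell BCAVF1ANXX alone. It was 0.91 with the flow cell as a term and 1.17 without untreated replicates 6 and 7. Of 15 junction genes, 13 were above 0 with a median of 0.52, and 6 were higher at an unadjusted p under 0.05, against the same 9.51% of all genes. Cldn4, a tight junction claudin, had levels of 12.35, 6.68, 11.01, 11.48 and 12.33 in therapy tumours, against 4.45 to 11.54 with a median of 6.47 in untreated tumours. Its high untreated libraries were replicates 3, 4 and 8. The junction median was 0.20 on flow cell BCAVF1ANXX alone and 0.30 without untreated replicates 6 and 7.

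**Figure D5:**
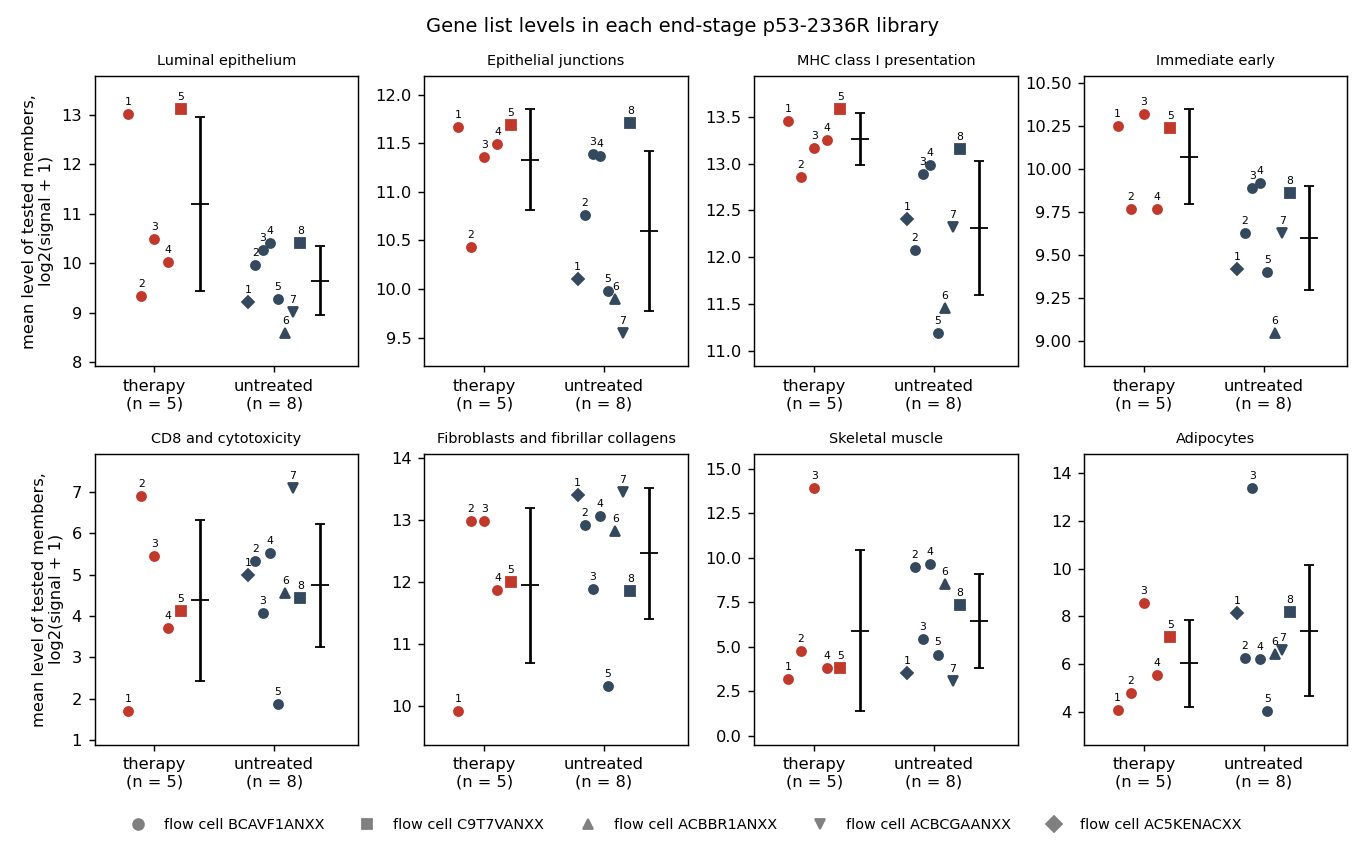
Mean level of the tested members of 8 gene lists, log2(signal + 1), in each end-stage p53-2336R library, therapy at the left. Numbers are replicates, shapes are flow cells and bars are the mean with its SD (n = 5 and 8). Therapy replicates 1 and 5 are high in luminal genes, untreated replicates 3, 4 and 8 lie near the therapy tumours in class I and junction genes, and single libraries carry muscle (therapy replicate 3) and fat genes (untreated replicate 3).

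Untreated replicates 3, 4 and 8 were thus the untreated tumours nearest to the therapy tumours in Arg1, Krt8, Cldn4, H2-K1 and the class I list, where their levels of 12.89, 12.98 and 13.16 were the highest of the untreated arm. Leaving out replicate 8 gave 393 calls, among them H2-K1, Krt18, Cldn3, Arg1, Junb and Gpr83 as higher (1.26% of all genes passed in this direction and 1.16% in the other). These 3 libraries share no single flow cell: replicates 3 and 4 were on BCAVF1ANXX and replicate 8 on C9T7VANXX.

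Basal genes were mixed, and most mesenchymal and collagen genes had differences below 0. At an unadjusted p under 0.05, 3 basal, 4 mesenchymal and 0 collagen genes were lower, against 11.6% of all genes. In these 3 lists 0 genes were higher at that threshold, against 9.51%. Of 12 basal genes 7 were above 0 and 5 below, with a median of 0.12 and members from -0.97 to 2.42. Krt5 differed by 0.10 ± 0.20, while Lama3, a laminin chain of the basement membrane, averaged 11.16 ± 0.34 in therapy tumours and 12.13 ± 0.81 in untreated tumours (SD, n = 5 and 8). Of 15 mesenchymal transition genes 13 were below 0, with a median of -0.33, and of 16 fibroblast and collagen genes 15 were below 0, with a median of -0.58. Zeb2, a repressor of Cdh1, averaged 9.45 ± 0.66 in therapy tumours and 10.43 ± 0.85 in untreated tumours. On flow cell BCAVF1ANXX alone both medians were -0.14, and without untreated replicates 6 and 7 they were -0.10 for the mesenchymal list and -0.27 for the collagen list. With the flow cell as a term they were 0 for the mesenchymal list and -0.04 for the collagen list. The collagen level ran from 9.92 in therapy replicate 1 up to 12.99 in therapy replicate 3, and from 10.33 in untreated replicate 5 up to 13.46 in untreated replicate 7. Vim, an intermediate filament of mesenchymal cells, differed by -0.40 ± 0.29. Of 14 endothelial genes 11 were below 0, with a median of -0.45. Their median was -0.14 on flow cell BCAVF1ANXX alone and -0.04 with the flow cell as a term. Kdr, the main VEGF receptor, averaged 9.82 ± 0.56 in therapy tumours and 10.71 ± 0.95 in untreated tumours.

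Immediate early genes, which include the Jun and Fos partners that form AP-1 with Jund, were above 0 for 9 of 12 members with a median of 0.58. Their median was 0.50 on flow cell BCAVF1ANXX alone and 0.61 without untreated replicates 6 and 7. Junb had levels of 11.40, 11.76, 11.19, 10.40 and 11.30 in therapy tumours, against 9.74 to 10.85 with a median of 10.45 in untreated tumours. Therapy replicate 4 alone lay inside the untreated range. Atf3, a stress-induced partner of Jun proteins, averaged 10.94 ± 0.93 in therapy tumours and 9.39 ± 1.24 in untreated tumours, and Egr1 differed by -0.25 ± 0.26.

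Proliferation and p53 target lists gave small median differences. Of 20 mitosis genes 15 were below 0, with a median of -0.14. Bub1, a spindle checkpoint kinase, averaged 11.14 ± 0.18 in therapy tumours and 11.60 ± 0.30 in untreated tumours, a difference of -0.46 ± 0.13 (SE, adjusted p = 0.0892 by limma). Mki67 differed by -0.36 ± 0.20. Of 20 DNA replication genes 12 were below 0 with a median of -0.02, and of 15 p53 targets 10 were below 0 with a median of -0.11. The p53 targets ran from -0.98 to 0.61. At an unadjusted p under 0.05, 3 of them were higher and 3 lower, against 9.51% and 11.6% of all genes. Those of lowest p were Bax at 0.44 ± 0.18 and Phlda3 at 0.61 ± 0.25. At that threshold 3 mitosis and 2 replication genes were lower and 0 of either were higher. Hypoxia and glycolysis genes had a median of 0.37 over all libraries and of -0.08 on flow cell BCAVF1ANXX alone.

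Single libraries carried muscle and fat genes, and red cell genes had differences below 0. Skeletal muscle genes averaged 13.94 in therapy replicate 3, against 3.20 to 4.78 in the other therapy tumours and 3.06 to 9.65 in untreated tumours. Acta1, muscle actin, had a highest level of 15.82 in therapy tumours and 12.59 in untreated tumours. Fat cell genes averaged 13.38 in untreated replicate 3, against 4.11 to 8.58 in therapy tumours and 4.05 to 8.20 in the other untreated tumours. All 11 tested fat cell genes were below 0, with a median difference of -1.49 and of -1.61 on flow cell BCAVF1ANXX alone. That flow cell held untreated replicate 3. Its other untreated libraries had fat cell levels of 6.27, 6.23 and 4.05, against 4.11, 4.79, 8.58 and 5.56 in its therapy libraries. At an unadjusted p under 0.05, 1 fat cell gene was lower and 0 were higher, against 11.6% and 9.51% of all genes. Erythroid genes had a median difference of -1.51 over 7 members, of which 6 were below 0, where 50% of all genes were above 0. At an unadjusted p under 0.05, 3 were lower and 0 higher, against 11.6% and 9.51% of all genes. The erythroid median was -1.58 on flow cell BCAVF1ANXX alone, -2.27 with the flow cell as a term and -2.08 without untreated replicates 6 and 7. In this list Alas2, the first enzyme of heme synthesis in red cells, averaged 6.69 ± 0.96 in therapy tumours and 8.50 ± 1.88 in untreated tumours (SD, n = 5 and 8). The part of these genes' cells in the other differences was not tested. Without therapy replicate 3 the count of genes called was 0 by limma (2952 at an unadjusted p under 0.05), and without untreated replicate 3 it was 15.

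Therapy at 3 days in the same model was an earlier time point, with 5 therapy libraries and 3 untreated libraries, all on flow cell ACBBR1ANXX. The labels give the untreated ones as 3 days, while a header row of the deposited table calls them pretreatment. At 3 days 0 genes passed by limma (0%), with 35 (0.213%) at an unadjusted p under 0.05. The therapy difference at end stage minus that at 3 days passed for 0 genes (0%), 395 (2.41%) had an unadjusted p under 0.05, and the smallest adjusted p among the genes named was 0.977. Jund differed by 1.14 ± 0.22 at end stage and by -0.02 ± 0.28 at 3 days, a difference between them of 1.16 ± 0.35. At 3 days it averaged 11.73 ± 0.36 in therapy tumours and 11.75 ± 0.55 in untreated tumours (SD, n = 5 and 3). Lgals3 and Mfsd2a, a lipid transporter, gave differences between the times of 1.39 ± 0.55 and 1.59 ± 0.62. On the lower side Csn3, a milk casein, differed by -2.03 ± 0.88 at end stage and 0.17 ± 1.12 at 3 days.

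At 3 days the 2 genes called at end stage differed by -0.20 ± 0.21 for Pcdh7 and -0.37 ± 0.20 for Olfml2a, with a difference between the times of -0.88 ± 0.27 for Pcdh7 and -0.64 ± 0.25 for Olfml2a. The class I list had a median difference of 1.13 at end stage and 0.68 at 3 days, the interferon gamma list 0.37 at end stage and 0.98 at 3 days, and the luminal list 0.83 at end stage and 0.45 at 3 days. T cell receptor genes had a median of -0.09 at end stage and 0.98 at 3 days. Levels in the 3-day therapy libraries were uneven. They ran from 4.75 to 7.59 with a median of 5.22 for the T cell receptor list, and from 6.91 to 11.82 for the interferon gamma list. Therapy replicate 2 at 3 days held an estimated 11.8 M reads and 19278 genes above 0. No list was tested between the times. All 3-day libraries came from 1 flow cell, whose only end-stage library was untreated replicate 6, so time and flow cell cannot be told apart for the therapy arm.

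The therapy difference at end stage was also set against that in p53-2225L and T11, the other models for which both end-stage arms were compared. In p53-2225L, with 3 therapy and 5 untreated tumours, 0 genes passed (0%; 632, or 3.62%, at an unadjusted p under 0.05 by limma), and in T11, with 5 tumours in each arm, 2 of 17449 genes passed (0.0115%; 3.68% had an unadjusted p under 0.05). The difference of differences passed for 0 genes against p53-2225L (0%; 1380, or 7.91%, at an unadjusted p under 0.05) and for 0 against T11 (0%; 1526, or 8.75%, at an unadjusted p under 0.05). No therapy response was therefore shown to be particular to p53-2336R.

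Values for the genes with the smallest p follow. Jund differed by 1.14 ± 0.17 in p53-2336R in this fit of 3 models and by 0.11 ± 0.22 in p53-2225L, where it averaged 13 ± 0.08 under therapy and 12.89 ± 0.34 without it (SD, n = 3 and 5). St3gal4, a sialyltransferase, averaged 12.40 ± 0.33 in therapy and 11.84 ± 0.23 in untreated p53-2336R tumours, and 11 ± 0.23 in therapy and 11.47 ± 0.35 in untreated p53-2225L tumours, a difference of differences of 1.02 ± 0.25 (SE, adjusted p = 0.281 by limma). Clmp, an adhesion protein of epithelial junctions, gave -2.48 ± 0.62, with differences of -0.55 ± 0.38 in p53-2336R and 1.93 ± 0.49 in p53-2225L. In p53-2225L it averaged 10.17 ± 0.38 under therapy and 8.24 ± 1.22 without it. Against T11, Col17a1, a hemidesmosome collagen, gave -1.32 ± 0.26 (SE, adjusted p = 0.215 by limma), with differences of -0.47 ± 0.17 in p53-2336R and 0.85 ± 0.19 in T11. Pcdhgc3 gave -1.33 ± 0.36 against T11, with differences of -1.34 ± 0.24 in p53-2336R and -0.01 ± 0.27 in T11.

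Both called genes were also measured in the other models. Pcdh7 differed by -0.10 ± 0.25 in p53-2225L and by -0.10 ± 0.22 in T11. Olfml2a differed by -0.28 ± 0.23 in p53-2225L and by -0.87 ± 0.20 in T11, where it averaged 9.96 ± 0.42 under therapy and 10.83 ± 0.16 without it (SD, n = 5 each). The difference of Olfml2a between p53-2336R and T11 was -0.14 ± 0.26. The class I list had median differences of 1.13 in p53-2336R, 0.10 in p53-2225L and 0.75 in T11, and the luminal list 0.83, -0.06 and -0.36 in the same order. These medians were not tested against each other.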

How the data were processed

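RNA was sequenced from mouse mammary tumours, and the values used here are a gene-level table of signal that the authors deposited, scaled to an upper quartile of 2048.974 in every library per the file headers. The submitters' processing notes name STAR, Salmon, SAMtools, Picard and the build mm10, and the annotation is not given in the sources used here. Because the deposited signal is not a count and at most 54.1% of values in an end-stage library came out as whole reads within 0.01, no count test was run, and the reads per library are estimates from the smallest steps between values. Of 45724 entries, 39 named as dates and 28 that repeat 14 symbols were left out. A further column of values that belongs to no sample (1 column) was not used.

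Levels are log2(signal + 1), with a pseudocount of 1. Genes above 0 in at least 5 of the fitted libraries (24626) were ranked by mean level and the upper 2 in 3 were tested. limma 3.58.1 in R 4.3.3, with a mean-variance trend, was fitted to 4 groups of p53-2336R (21 libraries, 17 residual degrees of freedom, 16417 genes) and to the end-stage groups of 3 models (31 libraries, 25 residual degrees of freedom, 17449 genes). P-values were adjusted by the Benjamini-Hochberg method over all genes tested, and a gene was called at an adjusted p under 0.05. The script was tested on simulated data. The rule for named genes took the called ones with a difference of at least 1 and a mean above the median, filled to 6 in each direction by unadjusted p. It added a panel of 27 genes and the 2 members of lowest p in each list. Not all genes that this rule took are named in the text. Other genes named are members of the lists. The members, lists and tests were chosen with earlier results of these data known. Positions are from a GRCm38 annotation matched by symbol, and 16173 tested symbols were found in the name table. Alternatives changed the pseudocount, scaling, filter, weights, flow cell handling, libraries and the source of the spread. Estimated depth of the end-stage libraries was 29.4 to 95.3 M reads (M, mega), so low genes such as Ifng are the least precise.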

Additional observations from a re-analysis of the deposited data

Results flagged for a closer look

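Of 88 groups tested, which were the levels of 43 lists and of the gene Olfml2a over the 5 therapy or the 8 untreated tumours, 6 held a library whose gap to its neighbour was large for the range of its group, and chance flags about 1 in 20 groups. Skeletal muscle genes averaged 13.94 in therapy replicate 3, with the nearest therapy tumour at 4.78. Epithelial junction genes averaged 10.43 in therapy replicate 2, with the nearest therapy tumour at 11.36. Fat cell genes averaged 13.38 in untreated replicate 3, with the nearest untreated tumour at 8.20. Milk protein genes averaged 10.07 in untreated replicate 1, with the nearest at 8.59. Helper T cell genes averaged 8.85 in untreated replicate 7, with the nearest at 7.81, and B cell genes averaged 6.83 in the same library, with the nearest at 5.51.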

How the results depend on the processing

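The therapy comparison at end stage called 2 genes as reported. It called 2 with a pseudocount of 0.1 or 10, with the stricter filter and with robust empirical Bayes, and 3 with no filter by mean. It called 250 with median ratio scaling, 301 with quantile normalization and 247 with the spread from all classed tumour groups. It called 1 on flow cell BCAVF1ANXX alone (1260 at an unadjusted p under 0.05). It called 0 by limma with array quality weights (3461 at an unadjusted p under 0.05), with flow cell as a term (2594), with the spread from the 13 end-stage libraries alone (2303) and on the flow cells that held both arms with flow cell as a term (1519). Leaving out each library in turn gave 0 to 393. Chosen after seeing the data, the fit without untreated replicates 6 and 7 called 0 (2783 at an unadjusted p under 0.05), the flow cells with both arms and no term called 0 (1337), and the spread from the end-stage groups of 3 models called 693. The cause of these shifts was not tested.

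The difference between end stage and 3 days stayed at 0 calls under each alternative run. Against p53-2225L the count of 0 became 1 with median ratio scaling, 1 with quantile normalization, 1 with the spread from all classed groups, 6 on flow cell BCAVF1ANXX alone and 227 with array quality weights, and 0 to 1 when a library was left out (1 without untreated replicate 3, untreated replicate 6 or therapy replicate 3). Against T11 it became 3 with the spread from all classed groups and was 0 when any p53-2336R library was left out. Of the named genes' values under alternatives, 3019 kept their direction and side of the threshold, 64 passed where they had not, 26 no longer passed, and 49 changed sign with neither value past the threshold, and of the lists' medians 15 moved by more than the spread between replicates. No paired analysis was possible because the labels give the arms no shared animal, litter or replicate number.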
